A study of Homo sapiens with 36 samples.

Results

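Forced activation of E2F1 was followed in control siRNA cells, that is in U2OS ER-HA-E2F1 cells that carried a negative control siRNA and no knockdown. The 12 arrays are those of the Dharmacon and the Sigma-Aldrich negative control siRNA at 0 h and at 8 h of 4-hydroxytamoxifen (OHT), with 3 arrays labelled as biological replicates for each siRNA and time, out of 36 arrays in the series. Control arrays at 4 h (6) and the arrays of cells with siRNA against NFYB (18) are used beside them. U2OS is a human osteosarcoma line, and the line used here was made by retroviral infection with ER-HA-E2F1 and puromycin selection, so that every group carries the transgene, and whether it is a pool or a clone is not given in the sources used here. All groups were starved of serum for 24 h, starting 18 h after transfection. The 0 h groups had no OHT, and the 8 h groups then spent a further 8 h in replaced serum-free medium with 80 nM OHT. There was no group with the medium change alone and no parental line in these arrays, so the activity of E2F1, OHT itself, the medium change and the added hours of starvation cannot be told apart, and "E2F1 response" below names the comparison of 8 h with 0 h.

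E2F1 is a transcription factor that binds DNA together with a DP partner and is held in check by the retinoblastoma protein until cyclin-dependent kinases release it. Released E2F1 turns on genes for entry into S phase, among them cyclin E and enzymes of DNA synthesis, and in excess it also turns on genes of programmed cell death such as APAF1 and TP73. In the ER fusion the hormone-binding domain of the estrogen receptor keeps E2F1 inactive until OHT is added, which makes the start of its activity a matter of hours.

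Each Affymetrix human expression array gave a MAS5 signal for 22215 probe sets, a linear intensity that the authors scaled to a trimmed mean of 500 on every array, so that every change below is relative to the rest of the same array. Log2 signals were compared with limma, two-sided, and a probe set was called when its p, adjusted over all probe sets, was under 0.05. Across probe sets, arrays of the same siRNA and time correlated at r = 0.984 to 0.989 (12 pairs), arrays of the other control siRNA at the same time at 0.968 to 0.978, and arrays at 0 h with those at 8 h at 0.841 to 0.866. Where a gene has several probe sets, the brightest over all arrays stands for it in the lists, and the one that moved most among the largest changes. As a scale for dim probe sets, 28 genes of other tissues (albumin, insulin, crystallins and the like) had a median signal of 15.95 at 0 h and a 90th percentile of 52.9, which is called the reference level below, while the median over all genes was 205.6. Of 11 osteoblast and mesenchymal markers 8 lay above the reference level and RUNX2, COL1A2 and TWIST1 below it, and over the 11 the summed signal ran from 35945 to 43723 at 0 h and from 31210 to 35838 at 8 h. The sums were 604 to 806 and then 626 to 746 for 10 epithelial markers, 243 to 270.3 and then 220.0 to 308 for 9 leukocyte markers, and 163 to 264 and then 104 to 172 for 7 endothelial markers. Of these, 6, 8 and 6 lay below the reference level, and none was at 0. Their part in the results was not tested. Among the mesenchymal markers 5 were called lower and none higher, with COL1A1, a collagen chain of bone, at 2219, 2704 and 3525 at 0 h and 1265, 1733 and 2213 at 8 h (log2 fold change -0.68).

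At 8 h the response reached across the array. Of the 22215 probe sets, 4504 (20.3%) were called higher and 6586 (29.6%) lower, and by gene 2519 of 11963 (21.1%) rose and 4100 (34.3%) fell, so that a fall was the more common change. Large changes went the other way: 242 probe sets rose by at least 8-fold and 44 fell by as much, and 79 against 8 moved by at least 16-fold. No offset or signal filter was used for these counts, so changes from or to dim signals count in full. TP73, with means of 3.24 at 0 h and 43.4 at 8 h, is among the 79. The part of dim signals in these counts was not tested. The median log2 fold change was 1.04 among those called higher and -0.75 among those called lower, beside -0.10 over all probe sets and -0.16 over all genes. All 6 arrays at 8 h lay above all 6 at 0 h for 3142 probe sets (14.1%) and below them for 4363 (19.6%). With probe sets put into 5 equal groups by signal, 1457 and 1967 of the 4443 in the brightest group were called higher and lower, against 175 and 132 in the dimmest, so counts lean on bright genes. In a population of cells, a change in each cell and a change in the share of cells that hold the RNA cannot be told apart.

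The response was close in form with each control siRNA. The log2 fold changes of the 13329 probe sets in the upper 60% by signal correlated at r = 0.948, as a description across probe sets, which are not independent. On the log2 scale much of the rise was in place by 4 h. On the linear scale a 4 h signal between the ends is a smaller part of a rise and a larger part of a fall. For probe sets called higher by at least 2-fold the 4 h change was a median of 0.797 of the 8 h change on the log2 scale, against 0.599 for those called lower by at least 2-fold, and 423 of the 2358 rising ones stood higher at 4 h than at 8 h. Changes at 4 h and at 8 h share the 0 h arrays.

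**Figure D1:**
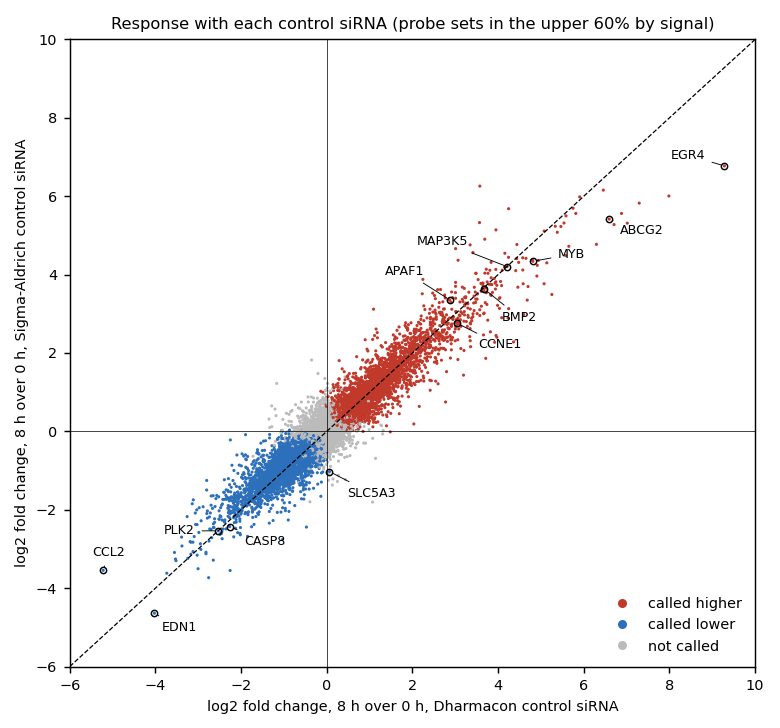
Log2 fold change at 8 h over 0 h with the Dharmacon control siRNA (x axis) and with the Sigma-Aldrich control siRNA (y axis), each from 3 arrays a time, for 13329 probe sets in the upper 60% by signal. Points are coloured by the call over both siRNAs, the dashed line marks equal change, and 12 named genes are circled. The points follow the line (r = 0.948), MAP3K5 lies on it at 4.21 and 4.20, and EGR4, ABCG2 and SLC5A3 lie off it.

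MAP3K5 and APAF1, which mark this response, rose together. MAP3K5, also known as ASK1, is a stress kinase upstream of JNK and p38, and its signal was 154, 158 and 168 at 0 h (lowest, median and highest of 6 arrays, the order used below) and 2806, 2931 and 3072 at 8 h. The 0 h arrays lie within a narrow band, and every 8 h array stands far above it. The log2 fold change was 4.21 (SE 0.07, 18.5-fold, adjusted p = 1.98e-33, limma), and the mean at 4 h was 1849, between both ends. APAF1, the scaffold of the apoptosome that activates caspase 9, went from 74.3, 136 and 178 to 922, 1088 and 1208, with no overlap. Its log2 fold change, the value given in parentheses after signals from here on, was 3.11 (SE 0.17, 8.65-fold, adjusted p = 1.77e-18). Its 4 h mean was 702, and its 0 h level was lower with the Sigma-Aldrich siRNA, which gave a log2 fold change of 3.36 against 2.87 with the Dharmacon one. That difference did not pass the test (0.49, SE 0.21, adjusted p = 0.416).

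Counts of gene lists from here on are to be read against all genes, of which 21.1% rose and 34.3% fell (median -0.16). Most lists are brighter than all genes, and bright probe sets were called more often in both directions. Among the 13329 in the upper 60% by signal, tested alone, 3860 were called higher and 6077 lower. The part of signal level in the list counts was not tested. Of 18 measured genes of the apoptosome, caspases and stress kinases, 4 rose (22.2%, near the share of all genes) and 9 fell (median -0.32), with MAP3K5 and APAF1 among the 4. CASP8, the initiator caspase of death receptors, went from 398, 533 and 614 to 73.5, 105 and 122, with all 8 h arrays below all 0 h arrays (-2.35, SE 0.17, adjusted p = 6.35e-15). CASP9, the caspase that the APAF1 apoptosome activates, fell from 157, 241 and 292 to 89.2, 112 and 131 (-1.07). AIFM1, a mitochondrial flavoprotein released in cell death, and DFFA, the inhibitor of the DNA fragmentation nuclease, fell by 1.001 and 0.89 on the log2 scale. So the gene for the scaffold rose while the gene for the caspase it recruits fell, in all 6 arrays against all 6 in each case. Over all probe sets 14.1% lay wholly higher at 8 h and 19.6% wholly lower.

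Members of the intrinsic pathway moved both ways. In the list of BH3-only proteins, BAX, BAK and p53 partners, 7 of 17 rose and 6 fell (median 0.05). HRK, a BH3-only protein best known from neurons, was among the rises and went from 59.98, 107 and 144 to 1055, 1279 and 1567 (3.65, SE 0.14, 12.6-fold). BCL2L11, which encodes BIM, went from 83.1, 131 and 207 to 425, 533 and 601 (1.999, SE 0.16). The p53-binding ASPP proteins rose as well, with PPP1R13B (ASPP1) at 91.9, 106 and 125 and then 405, 481 and 545 (2.17). TP53BP2 (ASPP2) rose by a log2 fold change of 1.35 (SE 0.07). SIVA1, a death-domain adaptor protein that binds CD27, rose from 638, 714 and 837 to 1381, 1539 and 1651 (1.10, SE 0.08, adjusted p = 5.32e-15). TP73, the p53 relative, was called higher (adjusted p = 6.7e-10), from signals of 1.06, 1.38 and 11.5 to 31.9, 42.2 and 56.6, but its 8 h mean of 43.4 stayed under the reference level of 52.9, so no fold is given.

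Of 16 measured death receptors and adaptors, 3 rose (18.8%, near the 21.1% of all genes) and 8 fell (median -0.25). TNFRSF1A, the main TNF receptor, dropped from 1176, 1366 and 1541 to 258, 269 and 281 (-2.35, SE 0.12, adjusted p = 1.94e-19), and most of the drop was seen at 4 h (mean 347). FADD, the adaptor that joins death receptors to caspase 8, went from 930.3, 1059 and 1114 to 266, 309 and 347 (-1.76). The groups do not overlap for either gene, but both were named for their small p, and 19.6% of all probe sets lay wholly lower at 8 h. TRAF3, an adaptor of TNF receptors, went up from 224, 254 and 303 to 804, 985 and 1148 (1.92), and RIPK2, a kinase that feeds NF-kB, rose by 1.01. TNFRSF10B, a receptor for TRAIL, fell by 0.74.

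Survival genes moved in both directions: of 22 anti-apoptotic genes 8 rose and 10 fell (median -0.12). BCL2 itself, which blocks release of cytochrome c, went from 63.1, 64.8 and 84.2 to 424, 505 and 670.3 (2.90, SE 0.15, 7.44-fold). BCL2A1, a relative of BCL2, stood at 75.5, 101 and 143 and then 715, 898 and 1061 (3.10), and its 4 h mean of only 126 makes it a late riser. BAG1, a co-chaperone that binds BCL2, rose from 461, 553 and 643 to 1714, 1804 and 1975 (1.72). CFLAR, which encodes the caspase 8 inhibitor FLIP, went the other way, from 692, 816 and 1013 to 163, 203 and 281 (-2.01, SE 0.12). DAD1 and BAG2 fell by 0.67 and 0.95. API5, an inhibitor of apoptosis, stood at 1005, 1235 and 1663 and then 1295, 1547 and 1869, with overlapping groups (0.31, SE 0.16, adjusted p = 0.103), and MALT1, a paracaspase of NF-kB signaling, at 339, 406 and 501 and then 352, 427 and 478 (0.04, SE 0.10, adjusted p = 0.79). Neither passed the test.

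**Figure D2:**
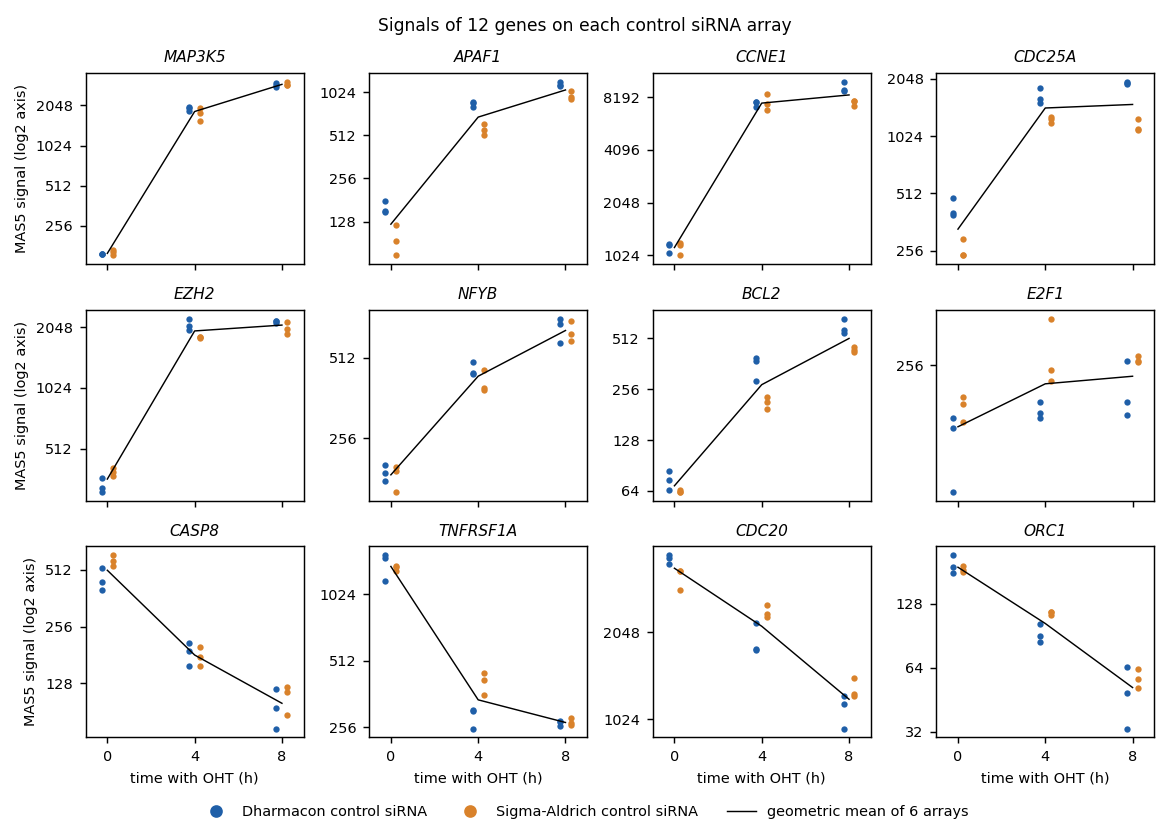
MAS5 signal (y axis, log2 scale, different range in each panel) of 12 genes on each of 18 control siRNA arrays at 0, 4 and 8 h with OHT (x axis). Points are arrays, 3 for each control siRNA and time, and lines join geometric means of 6 arrays. MAP3K5, APAF1 and NFYB go on rising to 8 h, CCNE1, CDC25A and EZH2 are near their 8 h level at 4 h, CASP8, TNFRSF1A, CDC20 and ORC1 fall, and E2F1 arrays at 0 h and 8 h overlap.

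The list of G1/S genes, which holds drivers of the step and their inhibitors, had the highest share of rises among the cell cycle lists. Of 16 measured G1/S cyclins, kinases and inhibitors, 9 rose, each by at least 2-fold, and 5 fell (median 1.35). Of the 9, 4 were inhibitors of cyclin-dependent kinases, and CCND1, CCND2, CDK4, CDK6 and CKS1B were those that fell. CCNE1, a cyclin that activates CDK2 at the G1/S boundary, went from 1021, 1169 and 1208 to 7343, 8387 and 10036 (2.90, SE 0.09, 7.46-fold, adjusted p = 7.24e-26). CCNE2, its paralog, went from 344, 394 and 504 to 3011, 4017 and 4878 (3.27, SE 0.13). Both were near their 8 h level at 4 h, with means of 7606 and 3674. CDC25A, the phosphatase that frees CDK2 from its inhibitory phosphate, rose from 241, 345 and 482 to 1099.8, 1592 and 1972 (2.18), and CCND3, a D-type cyclin, from 887, 973 and 1194 to 4117, 4543 and 4867 (2.15). The 3 CIP/KIP inhibitors, which oppose these kinases and were singled out after their values were seen, are among the 9. CDKN1C (p57) went from 287, 320.2 and 505 to 3020.2, 3888 and 4917 (3.43, 10.7-fold), and CDKN1A (p21) and CDKN1B (p27) rose by 1.63 and 1.75. CCNA2, the S phase cyclin, did not pass the test (1251, 1666 and 1908 and then 1437, 1482 and 1643, -0.10, SE 0.17, adjusted p = 0.676).

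In the list of E2Fs with their DP partners and pocket proteins, 5 of 12 measured genes rose and 2 fell (median -0.09, with 0.01 after quantile normalization and 0.082 with the Sigma-Aldrich siRNA alone, and none lower after median centring). E2F8, an E2F that represses transcription, went from 249, 339 and 397 to 900.0, 1120.3 and 1462 (1.74, SE 0.13), and E2F2, an activating E2F, from 18.1, 29.0 and 37.2 to 89.5, 104 and 119, where the 0 h signals lay below the reference level and the 8 h mean was 1.94 times that level. TFDP1, the DP1 partner of E2Fs, rose by 0.81, and RB1, the retinoblastoma protein that holds E2Fs in check, by 0.89 (SE 0.16). E2F1 RNA was 137, 195 and 219 at 0 h and 199.9, 260.4 and 268 at 8 h (0.36, SE 0.14, adjusted p = 0.0253), with overlapping groups, and with either control siRNA alone it did not pass the test. The endogenous message and that of the transgene cannot be told apart here.

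Among partners and followers of E2F1, MYB, a proto-oncogene that encodes a transcription factor, went from 96.1, 106 and 127 to 2096, 2635 and 3262 (4.57, SE 0.16, 23.8-fold, adjusted p = 1.87e-24). MYBL1 (A-MYB) went from 255, 289 and 346 to 1895, 1949 and 2096 (2.75) and was still rising after 4 h (mean 993). NFYB, a subunit of the CCAAT-binding factor NF-Y, rose from 161, 191 and 203 to 579, 654 and 717 (1.79, SE 0.19, 3.47-fold), while NFYC fell by 0.52, and NFYA did not pass the test (-0.01). MYC fell from 1204, 1620.0 and 1909.7 to 646, 793 and 869.8 (-1.03, SE 0.15), and its partner MAX fell by 0.89. In this list of NF-Y, MYB, FOXM1 and MYC genes 5 of 15 rose and 6 fell (median -0.17).

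Replication genes changed in both directions. Of 23 origin licensing and firing genes 8 rose (34.8%, beside 21.1% of all genes) and 12 fell (52.2%, beside 34.3%), with a median of -0.45. None of the 23 lay below the reference level at 0 h, and bright probe sets were called more often in both directions. DBF4, the activator of the CDC7 kinase that fires origins, rose from 1297, 1442 and 1632 to 4744, 5356 and 6198 (1.89, SE 0.10). The subunits of the origin recognition complex, singled out after their values were seen, fell for 5 of 6, and ORC6 rose by 0.65. ORC1, the subunit that is itself cell cycle regulated, went from 179, 189 and 218 to 33.1, 53.8 and 64.4 (-1.88, SE 0.14, adjusted p = 4.26e-14), its 8 h mean being no higher than the reference level, ORC3 from 499.5, 539 and 591 to 215, 236 and 241 (-1.22), and ORC4 from 1039, 1310.3 and 1521 to 488, 556 and 583 (-1.22). The times do not overlap for any of these, but they were named for their small p, and 19.6% of all probe sets lay wholly lower at 8 h. Of the MCM2-7 helicase, also singled out after its values were seen, 4 of 6 subunits fell, among them MCM5 (1859, 2049.8 and 2218 and then 940.5, 1023 and 1103, -0.98) and MCM3 (1926, 2147 and 2381 and then 1155, 1267 and 1311, -0.77, SE 0.06).

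At the fork, 9 of 31 genes rose (29.0%) and 13 fell (41.9%), with a median of -0.01 that became 0.057 with quantile normalization and 0.072 with median centring. Of the nucleotide enzymes, RRM2, the regulated subunit of ribonucleotide reductase, went from 5052, 5689.7 and 6539 to 14749, 16022 and 17758 (1.501, SE 0.08), and DCK, the deoxycytidine salvage kinase, from 686, 811 and 1177 to 3358, 5177 and 6468 (2.53, SE 0.20). TK1, thymidine kinase, fell by 0.65, and TYMS (-0.05) and RRM1 (0.08) did not pass the test, all given after their values were seen. POLE, the catalytic subunit of the leading-strand polymerase, rose from 421, 458 and 688 to 992, 1188 and 1321 (1.26). PRIM1, the catalytic subunit of primase, fell from 2879, 3097 and 3240.2 to 1476, 1514 and 1594 (-1.02, SE 0.06, adjusted p = 7.95e-17), and RPA2 and RFC1, parts of the single-strand binding protein and of the clamp loader, fell by 0.89 and 0.79.

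Later cell cycle genes mostly fell. Of 35 G2/M and mitosis genes 21 fell and 7 rose (median -0.56), and none rose by 2-fold. CDC20, the activator of the anaphase-promoting complex, went from 2859, 3420.2 and 3777 to 950.0, 1230.1 and 1425 (-1.504, SE 0.10), and KIF20A, a mitotic kinesin, from 1277, 1426 and 1602 to 299, 436 and 512 (-1.80, SE 0.12). CENPF, a kinetochore protein, fell from 2684, 2784 and 2887 to 1227, 1275 and 1326 (-1.12). These fell in steps, with 4 h means of 2164, 711 and 1797 between the ends. The kinases AURKB, TTK and BUB1 of chromosome segregation fell by 1.15, 1.37 and 0.76, and CCNB2, a mitotic cyclin, and CDC25C, the phosphatase that activates CDK1, by 0.51 and 1.17. CDK1 itself rose, from 3543, 4605 and 4833 to 5493, 5997 and 6813 (0.46, SE 0.12, adjusted p = 0.000897).

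Of 29 DNA damage checkpoint and repair genes 15 were lower (51.7%) and 7 higher (24.1%, beside 21.1% of all genes), with a median of -0.36. ATR, the kinase that answers stalled forks, went from 649, 699 and 885 to 215, 252 and 279 (-1.55, SE 0.09). RAD50 and MRE11, 2 parts of the complex that senses double-strand breaks, fell by 1.53 (SE 0.13) and 1.37 (SE 0.13), and BRCA1 fell from 625, 769 and 902 to 345, 398 and 468 (-0.94). MSH6, of mismatch repair, rose from 2746, 3039.9 and 3206 to 3965, 4454 and 5135 (0.57). TOPBP1, an activator of ATR, changed little (1196, 1263 and 1432 and then 1343, 1433 and 1717, 0.17, SE 0.07, adjusted p = 0.0288), with overlapping groups, and it lost its call under quantile normalization and when only the 12 arrays were fitted.

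The p53 targets divided. Of 17 measured targets 6 rose and 9 fell (median -0.60). CDKN1A went from 1624, 1873 and 2316 to 4832, 6097 and 6917 (1.63, SE 0.10), and PPM1D, the phosphatase that turns p53 off, from 1774, 1879 and 2196 to 5878, 6083 and 6850.5 (1.70). PLK2, a polo-like kinase, fell from 1489, 1601 and 1660.2 to 252, 256 and 312 (-2.54, SE 0.10, adjusted p = 6.69e-23). The repair genes XPC and DDB2, which recognize UV damage, fell from 552, 682 and 861 to 165, 190.2 and 216 (-1.85) and from 816, 897 and 1109 to 223, 322 and 439.7 (-1.52).

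Chromatin genes moved both ways, and core genes of Polycomb repressive complex 2 were among the rises. Of 27 chromatin and DNA methylation genes 11 rose and 8 fell (median 0.17), and the 5 core genes of Polycomb repressive complex 2, singled out after their values were seen, all rose, by 0.44 to 2.53. EZH2, its histone H3 lysine 27 methyltransferase, went from 313, 371 and 412 to 1885, 2153 and 2206 (2.53, SE 0.09, 5.77-fold, adjusted p = 1.33e-24). SUZ12, a subunit that the enzyme needs for activity, went from 2067, 2338 and 2887 to 6456, 7299.7 and 8467 (1.61), and EED, which binds the methyl mark, from 1200.2, 1454 and 1547 to 2774, 3072 and 3317 (1.11, SE 0.06). None of the 3 overlapped between times, but they were named for their small p, and 14.1% of all probe sets lay wholly higher at 8 h. KAT2B, a histone acetyltransferase, rose from 259, 279 and 385 to 1337, 1463 and 1513 (2.28), and HDAC1, a histone deacetylase, fell by 0.50.

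The greatest single rises were in genes that were dim before OHT. Of the 15 largest increases, 11 had a 0 h mean below the reference level and passed the filter on signal through the arrays where they are high, so that their order rests on dim signals. EGR4, a zinc finger factor of the early growth response family, was at 1.18, 7.64 and 21.4 at 0 h and 1258, 1468 and 2110.4 at 8 h, and since its 0 h signals lay below the reference level, its 8 h mean is better given as 29.3 times that level. HEY1, a repressor known as a Notch target, went from 18.96, 103 and 142 to 6121, 7037 and 8046 (6.56, SE 0.26). ABCG2, a drug efflux transporter, went from 45.0, 76.2 and 108 to 4203, 4487 and 5161 (6.005, SE 0.14, 64.2-fold). FGF4, a growth factor, stood at 24.5, 43.2 and 61.5 and then 1744, 1887 and 2015, or 35.3 times the reference level. CITED1, a transcriptional coregulator, reached 40.1 times that level, and DRD5, a dopamine receptor, and FA2H, a fatty acid hydroxylase, reached 23.0 and 18.2 times. GABBR2, a GABA-B receptor subunit, was late, with means of 55.0 at 0 h, 199 at 4 h and 2249 at 8 h. LHX2, CEMIP, NR4A3, KCNA3, TM6SF1 and STX11 also started below the reference level and ended at 3.14 to 25.9 times it, and ABCA5, an ABC transporter, went from 45.7, 57.3 and 78.3 to 2059, 2225 and 2373 (5.23).

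Among the 15 largest decreases were genes of several secreted signals. CCL2, a monocyte chemokine, dropped from 265, 297 and 385 to 4.92, 10.7 and 45.3, and EDN1, endothelin-1, from 242, 303 and 366 to 6.77, 17.3 and 29.7. Both ended below the reference level, so their 0 h means are given as 5.78 times that level for CCL2 and 5.78 times for EDN1. TNFRSF11B, osteoprotegerin, a decoy receptor that bone cells secrete, stayed measurable, from 955, 1303 and 1726 to 79.9, 99.2 and 129 (-3.68, SE 0.35, 12.8-fold lower). GJA1, the gap junction protein connexin 43, went from 1621, 2197 and 2615 to 201, 248 and 298 (-3.09, SE 0.15), and PDGFC, a growth factor, from 1489.9, 2021 and 2406 to 188, 253 and 341 (-2.98, SE 0.24). BMP5, another secreted factor, went from 249, 259 and 276, or 4.93 times the reference level, to 10.1, 26.5 and 47.1. ZSCAN31, MEAK7 and CAVIN2 also ended below that level, from 0 h means of 8.34, 4.02 and 2.73 times it. The other 6 of the 15, among them NEDD9, an adhesion scaffold, and the nuclear proteins ZMYND8 and ZBTB20, fell by 2.98 (ARMCX1) to 3.39 (ST6GALNAC5).

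**Figure D3:**
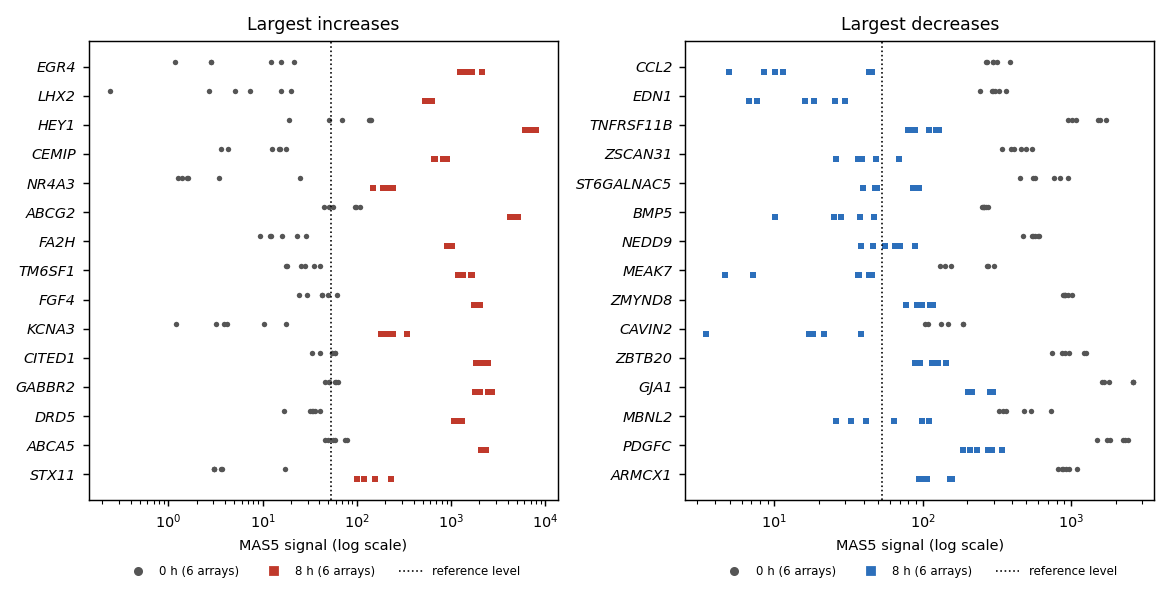
MAS5 signal (x axis, log scale) on each of 6 control arrays at 0 h (grey circles) and 6 at 8 h (coloured squares) for the 15 genes with the largest increase (left) and the 15 with the largest decrease (right). The dotted line is the reference level of 52.9. The genes were picked from these arrays as the largest called changes, and none overlaps between times. Over all probe sets 14.1% lay wholly higher at 8 h and 19.6% wholly lower. Most of the rising genes start to the left of the line.

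Immediate-early genes, the first to answer growth factors and stress, were among the lists with most rises: 16 of 30 rose, 12 of them by at least 2-fold, and 8 fell (median 0.39). EGR1 went from 1983, 2353 and 2657 to 11093, 12084 and 12790.4 (2.34, SE 0.08, adjusted p = 1.44e-24), and NR4A2, an orphan nuclear receptor, from 38.4, 60.5 and 94.4 to 1299, 1430.0 and 1784 (4.65, SE 0.19). ATF3, a stress-induced factor, went from 134, 163 and 189 to 895, 937 and 1107 (2.57). KLF10, a zinc finger factor induced by TGF-beta, rose by 2.57, and DUSP2, a phosphatase that switches off MAP kinases, by 3.12. NR4A2, ATF3, KLF10 and DUSP2 stood higher at 4 h (means 2361, 1488, 10359 and 1389.6) than at 8 h (1469, 959, 7847 and 974).

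Of 19 NF-kB targets and cytokines 8 rose and 4 fell (median 0.31), with 8 of the 19 below the reference level at 0 h. The factors themselves rose, RELB from 131, 139.7 and 153 to 386, 445 and 485 (1.62) and NFKB1 from 365, 405 and 434 to 805, 951 and 1126 (1.26). CXCL8, interleukin 8, went from 38.1, 77.7 and 85.8 to 292, 582 and 1380.0 (3.14, SE 0.33), a wide spread at 8 h. LIF, a cytokine of the IL-6 family, fell from 679, 876 and 1047 to 168, 175 and 216 (-2.21, SE 0.14) and CCL2 fell as given above. Of 28 interferon and antigen presentation genes 13 fell and 3 rose (median -0.17). IFI16, a DNA sensor, fell from 738, 1077 and 1309.8 to 198, 295 and 379 (-1.88), and IFI44 and IFIT5 by 2.03 and 1.56. IRF1, a factor of the interferon response, rose from 151, 212 and 279 to 767, 889.8 and 1073 (2.13, SE 0.11), and TAP1 and PSMB9, which load and cut peptides for antigen presentation, rose by 1.23 and 1.01.

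Ligands and receptors of developmental pathways gave some of the clearest changes. Of 29 BMP and TGF-beta genes 12 rose and 11 fell, with a median of 0.03 (-0.041 with the Dharmacon siRNA alone). Among ligands, BMP2 went from 184, 193 and 207 to 2303, 2428 and 2714 (3.65, SE 0.06, 12.6-fold, adjusted p = 1.98e-33), and BMP6 and BMP7 rose by 1.90 and 2.13. FST, follistatin, which traps activins and BMPs, went from 428, 628 and 947 to 7325, 8214 and 9397 (3.69). Among nuclear targets, ID4 and ID3, inhibitors of bHLH factors, went from 194, 273 and 346 to 4592, 5099 and 5664 (4.26, SE 0.10) and from 238, 392.2 and 577 to 1975, 2489.8 and 2837 (2.70). These are the members with the smallest p, and 11 other genes of the list fell.

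Wnt genes rose more often than they fell, 16 of 33 against 8 (median 0.47). The receptors FZD5 and FZD1 went from 159, 185 and 228 to 1639.9, 2075 and 2558 (3.44, SE 0.11) and from 355, 382 and 416 to 1556, 1737 and 1864 (2.16, SE 0.07). The ligand WNT5A rose from 273, 296 and 346 to 1088, 1149 and 1333 (1.95). LEF1, a DNA-binding partner of beta-catenin, went from 792, 938 and 969 to 4385, 4624 and 5069 (2.35), and TLE2, a corepressor, rose by 2.05. SFRP1, a secreted antagonist, went from 612, 688 and 806 to 1151, 1432 and 1655 (0.998, SE 0.11), with no overlap.

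Growth factor, receptor and PI3K-FOXO genes had the highest share of rises of the lists, 22 of 38, with 10 lower (median 0.57). FGFR3 went from 108, 119 and 126 to 2343, 2549.8 and 2654 (4.42, SE 0.09, 21.4-fold, adjusted p = 3.68e-31), and FGFR2 rose by 2.30. VEGFC, a growth factor for lymphatic vessels, went from 95.7, 138 and 190.3 to 973, 1101 and 1143 (2.98). The FOXO factors, which PI3K signaling keeps out of the nucleus, rose too, FOXO1 from 90.1, 135 and 178 to 538, 610.0 and 719.6 (2.22) and FOXO3 from 394, 476 and 549 to 1768, 1944 and 2311 (2.10). PRKCZ, an atypical protein kinase C, went from 305, 372 and 448 to 654, 943 and 987 (1.26, SE 0.11), and PDPK1, the kinase that activates AKT, rose by 1.37. The single probe set that names FOLH1, a membrane carboxypeptidase, and no other gene lay below the reference level at both times (4.92, 11.4 and 17.6 and 4.88, 12.2 and 25.7), and its change was not detectable at these signals. Probe sets that FOLH1 shares with its near copy FOLH1B were not read for it. The study lists FOLH1, on other probe sets of this array, among genes raised at least 2-fold by E2F1, and measured it by real-time PCR. The dim probe set read here cannot show whether FOLH1 rose.

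Matrix genes fell more often than they rose, 24 of 46 against 7 (median -0.40). SERPINH1, the collagen chaperone, went from 2553, 2720.2 and 3074 to 1143, 1299 and 1437 (-1.10), LOXL1, a crosslinking enzyme, from 733, 942 and 1216 to 389.6, 456 and 487 (-1.06), and COL4A2, a basement membrane collagen, from 3632, 3833 and 4121 to 2103, 2509 and 2993 (-0.63, SE 0.06). MMP9, a gelatinase, fell by 0.64, while MMP10, a stromelysin, rose from 22.9, 47.1 and 65.8 to 97.7, 146 and 180.1, a mean of 2.75 times the reference level that it lay below at 0 h. Lipid synthesis genes fell as well, 15 of 23 against 4 (median -0.49). SREBF1, the factor that drives them, went from 799, 921 and 989 to 425, 495 and 551 (-0.90), NSDHL, a sterol enzyme, from 980.3, 1112 and 1253 to 472, 539.9 and 588 (-1.04), but FASN, fatty acid synthase, rose from 1474, 1657 and 1790.2 to 2557, 2697 and 2927 (0.71, SE 0.07). ACACA, acetyl-CoA carboxylase, gave -0.66 on its brightest probe set and 1.19 on another, so no direction is given for it, although the list counts it by the former. In other lists BIRC5 (0.17 and -0.48), TPI1 (-0.12 and 0.42) and TEK (-3.27 and 1.61) were also called both ways and are counted by the brightest.

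Genes of the endoplasmic reticulum and of heat shock differed. Of 25 ER stress and folding genes 9 rose and 3 fell, with a median of -0.04 (0.01 with quantile normalization, 0.05 with median centring and 0.20 with the Sigma-Aldrich siRNA alone). CHAC1, a glutathione-degrading enzyme of the stress response, went from 80.8, 154 and 231 to 792, 865 and 952 (2.63), DNAJB9, an ER co-chaperone, from 636, 799 and 958 to 2456, 2594 and 2772 (1.71), and TRIB3, a pseudokinase, rose by 1.29. Cytosolic heat shock genes fell for 9 of 17 and rose for 3 (median -0.39). HSPB8, a small heat shock protein, fell from 692, 993 and 1306 to 212, 246 and 309.9 (-1.92) and HSP90AB1 from 10126, 11879.8 and 14235 to 5729.7, 7162 and 8109 (-0.76).

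The housekeeping machines of the cell gave small falls in most of their members. Of 43 genes of the respiratory chain and ATP synthase 40 fell and none rose (median -0.50), and 36 fell with median centring. NDUFA8, a subunit of complex I, went from 1115, 1322 and 1499 to 559, 597 and 646 (-1.12, SE 0.08), and ATP5F1A, of the ATP synthase, from 8977, 9456 and 10361 to 5771, 6662 and 6931 (-0.57). Of 26 proteasome genes 21 fell and 1 rose (median -0.38), with PSMD4, the ubiquitin receptor, at 3448, 3658 and 4192 and then 1455, 1747 and 2316 (-1.08). Of 34 ribosomal protein genes 28 fell and none rose (median -0.25), but the number depended on the scaling, with 12 lower after quantile normalization, 6 after median centring and 8 with the Sigma-Aldrich siRNA alone. RPS9 went from 9319.9, 10120.4 and 10951 to 6706, 7555 and 8549.7 (-0.42, SE 0.07).

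Of 28 genes of glycolysis and pyruvate entry 7 rose (25.0%) and 12 fell (42.9%), shares near those of all genes (21.1% and 34.3%, median of the list -0.26). HK2, a hexokinase, rose from 254, 321 and 388 to 944, 1433 and 2458 (2.23, SE 0.19) and ENO2, an enolase, from 485, 536 and 611 to 1816, 2021 and 2359 (1.92), whereas PDHB, of the pyruvate dehydrogenase complex, fell from 2827, 3589 and 4022 to 879, 1027 and 1157 (-1.76, SE 0.10), and SLC2A1, the common glucose transporter, from 579, 746 and 856 to 265, 293 and 323 (-1.31). Of 31 lysosome and autophagy genes 8 rose (25.8%) and 16 fell (51.6%; median -0.21, and 11 lower with median centring). TFEB, the factor that drives lysosome genes, went from 66.3, 72.4 and 99.4 to 379, 436 and 497 (2.46, SE 0.11), and ULK2, a kinase that starts autophagy, from 36.6, 45.8 and 57.1 to 227, 268 and 293, a mean of 5.03 times the reference level, whereas SQSTM1, the autophagy receptor p62, fell by 0.71.

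Promoter sequence was set beside these calls. RefSeq windows of GRCh38.p14, from 250 bases before to 50 after a gene's start, were searched on both strands for an E2F motif (TTTGGCGC, TTTCCCGC, TTTCGCGC or TTTGCCGC) and for CCAAT, the motif of NF-Y. The motifs can share an end letter where they adjoin. Of 9562 measured genes with a window, 6.08% held an E2F motif and 44.2% CCAAT in at least 1 window, beside 3.99% and 39.7% of all 27305 genes in the table. The E2F motif was in 7.58% of the 2018 genes called higher, 6.63% of the 3440 called lower and 4.87% of the 4104 not called, and CCAAT in 42.7%, 46.2% and 43.3%. Among genes in the upper 60% by signal the E2F shares were 7.94%, 6.85% and 7.46%, so that genes not called no longer stood below those called lower. Genes called higher had more windows to search (a mean of 1.59, against 1.41 for genes not called). Among upper 60% genes with 1 window the shares were 6.29%, 5.90% and 6.49%, with genes not called the highest. The windows of genes called higher were richer in G and C (67.8%) than those called lower (62.2%) or not called (60.1%), and the part of base composition in these shares was not tested.

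The motif is shown here in 3 genes that rose, in 1 that fell and, for contrast, APAF1, which rose and holds none in these bases. Each is the 200 bases before the start on the gene's own strand, with motif letters in capitals. CDC25A (chr3:48188418-48188617, minus strand) holds TTTGGCGC from position -44, where -1 is the base before the start, and CCAAT in reverse from -110 and -58. E2F2 (chr1:23531234-23531433, minus strand) holds TTTGGCGC from -42, SIVA1 (chr14:104752947-104753146, plus strand) TTTCCCGC from -191, and MCM3 (chr6:52284743-52284942, minus strand), a gene called lower, TTTCCCGC from -174 with CCAAT from -84 and in reverse from -120. APAF1 is at chr12:98645090-98645289, plus strand.
CDC25A: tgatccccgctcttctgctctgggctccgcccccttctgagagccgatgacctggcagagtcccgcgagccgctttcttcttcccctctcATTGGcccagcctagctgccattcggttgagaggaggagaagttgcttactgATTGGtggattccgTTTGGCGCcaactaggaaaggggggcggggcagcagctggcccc
E2F2: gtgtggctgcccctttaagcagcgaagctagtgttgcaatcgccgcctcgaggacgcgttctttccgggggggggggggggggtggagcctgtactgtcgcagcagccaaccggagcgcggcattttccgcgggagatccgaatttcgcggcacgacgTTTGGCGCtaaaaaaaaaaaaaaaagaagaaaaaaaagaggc
SIVA1: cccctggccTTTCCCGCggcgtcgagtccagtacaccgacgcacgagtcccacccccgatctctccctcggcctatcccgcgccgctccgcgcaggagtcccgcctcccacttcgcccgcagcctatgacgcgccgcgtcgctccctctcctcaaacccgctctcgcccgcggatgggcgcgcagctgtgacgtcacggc
MCM3: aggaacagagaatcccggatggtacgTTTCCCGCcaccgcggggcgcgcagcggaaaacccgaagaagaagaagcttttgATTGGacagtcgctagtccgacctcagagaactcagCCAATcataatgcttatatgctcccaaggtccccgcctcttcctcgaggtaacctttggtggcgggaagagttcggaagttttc
APAF1: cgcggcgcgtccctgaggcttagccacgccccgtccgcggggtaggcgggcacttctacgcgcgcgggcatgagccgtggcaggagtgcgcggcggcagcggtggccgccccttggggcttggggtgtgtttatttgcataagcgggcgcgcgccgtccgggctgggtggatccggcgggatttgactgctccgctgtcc
The same motif thus lies before a gene that rose by 1.10 (SIVA1) and one that fell by 0.77 (MCM3), and neither window of MAP3K5 holds it. A match is a description of these letters and not evidence of binding.

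Where the control siRNAs differed, they differed mostly before OHT. The response differed between the siRNAs for 181 probe sets (0.815%), of which 120 responded more in size with the Dharmacon and 61 with the Sigma-Aldrich siRNA, and 53 to 73 were called when 1 replicate number was left out. In 135 of the 181 the siRNAs stood further apart at 0 h than at 8 h. ABCG2 was at 45.0, 50.5 and 56.3 at 0 h with Dharmacon and 96.2, 97.7 and 108 with Sigma-Aldrich siRNA (lowest, middle and highest of 3 arrays), and at 4563, 4896 and 5161 and 4203, 4256 and 4411 at 8 h. Its 0 h levels do not overlap between the siRNAs, and its log2 fold change was 5.42 with Sigma-Aldrich against 6.59 with Dharmacon (difference -1.18, SE 0.12, adjusted p = 4.03e-07). The lowest and middle Dharmacon values at 0 h lay below the reference level, so the size of this difference is less firm. PRR16, a regulator of cell size, stood at 56.6, 70.9 and 85.1 and 276, 277 and 304 at 0 h and at 594, 633 and 692 and 745, 767 and 806 at 8 h (difference -1.76, SE 0.18). B4GALT6, a glycolipid galactosyltransferase, stood at 73.4, 85.7 and 95.1 and 246, 268 and 284, and then at 1149, 1371 and 1405 and 1378, 1443 and 1532 (-1.504, SE 0.16). HEY1 differed by -1.43 (SE 0.15) on its brighter probe set and by -1.47 (SE 0.31) on the other, whose lowest 0 h array lay below the reference level. For these the baseline was higher with the Sigma-Aldrich siRNA and the response smaller. SLC5A3, the inositol transporter, differed in direction as well as in size. With the Dharmacon siRNA it was at 1089, 1113 and 1163 and then 1133, 1166 and 1219, and with the Sigma-Aldrich siRNA at 2113, 2182 and 2190.1 and then 1039, 1058 and 1087, so that it fell with the latter (-1.03) and not with the former (0.06, difference -1.09, SE 0.10, adjusted p = 1.71e-07). Its pooled change of -0.48 thus rests on the Sigma-Aldrich arrays at 0 h. COL15A1, a collagen, shows the same problem at dim signals, with 16.3, 18.9 and 21.9 and 0.707, 0.709 and 1.30 at 0 h, all below the reference level, so that the size of its difference is not firm.

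**Figure D4:**
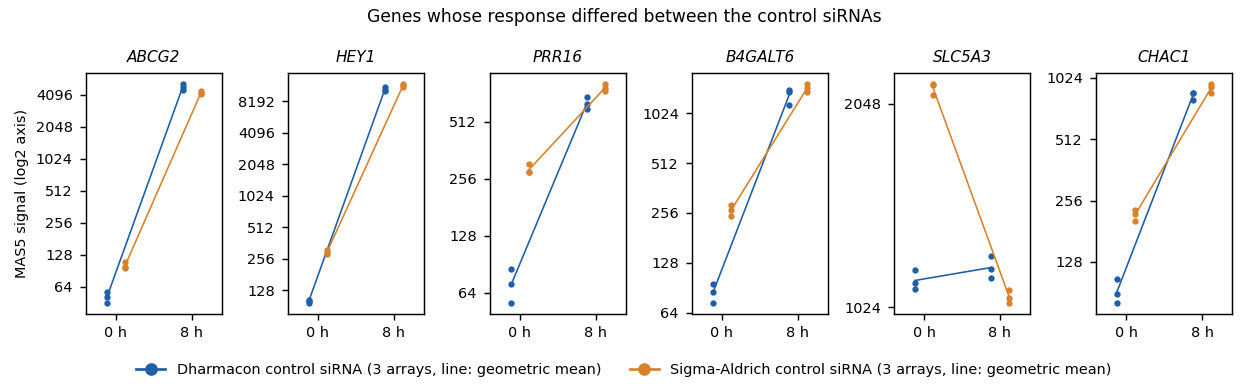
MAS5 signal (y axis, log2 scale, different range in each panel) at 0 h and 8 h (x axis) for 6 genes whose response differed between the control siRNAs, with HEY1 on its brighter probe set. Points are arrays (3 for each siRNA and time) and lines join geometric means. In each panel the siRNAs are further apart at 0 h than at 8 h, as in 135 of the 181 such probe sets, against 46 further apart at 8 h. The 8 h arrays of ABCG2, PRR16 and SLC5A3 still do not overlap between the siRNAs.

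Against the arm with siRNA to NFYB, changes in the control arm correlated at r = 0.968 over the upper 60% of probe sets by signal, as a description. Few differences passed the test, which does not show the other responses to be equal. The test compares changes and not levels. The change differed between the arms for 45 probe sets (0.203%), 40 of them also called in control cells, and for 3 to 8 when 1 replicate number was left out. In the NFYB siRNA cells 25 responses were larger with the same sign, 10 smaller and 10 opposite in sign. CDC25C, which fell in control cells by 1.17, changed by 0.13 in NFYB siRNA cells (means 474 and then 518; difference 1.30, SE 0.14, adjusted p = 5.82e-07). FAM111A, a protease that acts at replication forks, rose by 0.38 and 1.14 (difference 0.75, SE 0.11), and CDK2AP2, a CDK2-associated protein, by 0.82 and 1.52 (0.70, SE 0.12). WDR6, a WD-repeat protein, changed by -0.42 in control cells and 0.26 in NFYB siRNA cells (0.68, SE 0.10). MCF2L was also called (adjusted p = 0.00408), with means of 125 and then 9.34 in control cells and 12.7 and then 11.1 in NFYB siRNA cells, so that only the control mean at 0 h lay above the reference level and the size of the difference is not firm. For MAP3K5 and APAF1 the change in NFYB siRNA cells was 3.84 and 2.74, and neither difference passed the test (-0.37, SE 0.10, adjusted p = 0.198, and -0.37, SE 0.23, adjusted p = 0.79). The NFYB rise was 0.86 there against 1.79 in control cells, from a lower start (mean 66.6), and that difference did not pass either (-0.93, SE 0.27, adjusted p = 0.233).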

How the data were processed

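The series holds 36 Affymetrix expression arrays of 1 osteosarcoma line with inducible E2F1, of which 12 (Dharmacon or Sigma-Aldrich negative control siRNA, 0 h or 8 h of OHT) give the response. The deposited values are MAS5 signal intensities on a linear scale, made by the authors in Affymetrix Expression Console and scaled per array to a trimmed mean of 500 over all probe sets without the outer 2% at each end. Of 22277 probe sets 62 array controls were left out. Per the platform annotation, 19064 of the rest name 1 gene, 1043 several and 2108 none, and the symbols are those of that annotation. Detection calls were not used here.

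Log2 signals of all 36 arrays were fitted in 6 groups (control or NFYB siRNA at 0, 4 and 8 h) with limma 3.58.1 in R 4.3.3 (eBayes with a variance trend), without an offset, and p-values were adjusted by Benjamini-Hochberg over 22215 probe sets. Differences between the control siRNAs came from a fit with each siRNA and time as a group. The number of arrays limits the precision.

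The members and gene lists were chosen with earlier results of these data known. Named genes are 19 genes the study names, the 15 largest increases and decreases among called probe sets in the upper 60% by signal with the same sign for each siRNA, 2 to 6 of the called list members with the smallest adjusted p, and up to 5 genes for each difference. Members of complexes named beside these were chosen after their values were seen. Same-numbered arrays at 0 h and 8 h deviated together at r = -0.120 to 0.143, so replicate numbers were not taken as pairs. Alternatives changed the offset, scaling, signal filter, variance trend, arrays, siRNAs, blocks, test, and replicates left out.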

Additional observations from a re-analysis of the deposited data

Results flagged for a closer look

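Within groups of 6 arrays, a single array stood far from the other 5 in 17 of the named genes, by the ratio of its gap to the whole range of the group on the log2 scale. Chance gives such a ratio in about 1 of 20 groups. The 180 named probe sets were each examined at 0 h and at 8 h, so chance alone would give a count of about this size. The lowest array stood apart for CAVIN2 at 8 h (Dharmacon replicate 1, 3.48 against a next lowest of 17.0, ratio 0.663), DRD5 at 0 h (Dharmacon replicate 3, 16.8 against a next lowest of 31.9, ratio 0.724), PRKCZ at 8 h (Dharmacon replicate 3, 654 against a next lowest of 907, ratio 0.794), E2F1 at 0 h (Dharmacon replicate 2, 137 against a next lowest of 188, ratio 0.675), TFDP1 at 0 h (Sigma-Aldrich replicate 2, 1965 against a next lowest of 2375, ratio 0.714) and ORC3 at 8 h (Sigma-Aldrich replicate 2, 215 against a next lowest of 233, ratio 0.719). The same held for TTK at 0 h (Dharmacon replicate 1, 739 against a next lowest of 898, ratio 0.691), HDAC1 at 8 h (Sigma-Aldrich replicate 1, 1203 against a next lowest of 1286, ratio 0.73), BAG2 at 8 h (Dharmacon replicate 3, 638 against a next lowest of 771, ratio 0.645), KLF10 at 0 h (Dharmacon replicate 1, 1107 against a next lowest of 1326, ratio 0.76) and LOXL1 at 8 h (Dharmacon replicate 1, 389.6 against a next lowest of 451, ratio 0.656). The highest array stood apart for NR4A3 at 0 h (Sigma-Aldrich replicate 2, 25.2 against a next highest of 3.46, ratio 0.662), STX11 at 0 h (Sigma-Aldrich replicate 3, 17.1 against a next highest of 3.76, ratio 0.878), TOPBP1 at 8 h (Dharmacon replicate 1, 1717 against a next highest of 1459, ratio 0.663), TNFRSF10B at 8 h (Sigma-Aldrich replicate 1, 767 against a next highest of 607, ratio 0.792), ATF3 at 8 h (Sigma-Aldrich replicate 1, 1107 against a next highest of 966, ratio 0.643) and TRIB3 at 8 h (Sigma-Aldrich replicate 1, 2694 against a next highest of 2286, ratio 0.672). 

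The change at 8 h differed between the control siRNAs, by the test of that difference, for 13 named genes. ABCG2, SLC5A3, PRR16, B4GALT6 and the brighter HEY1 probe set were picked for this very difference, ABCG2 also for its large increase. They are therefore in the count by construction, and the 13 do not show how common such differences are. Over all 22215 probe sets the share called was 0.815%. The log2 change with the Sigma-Aldrich siRNA minus that with the Dharmacon siRNA was -2.51 for EGR4, -1.47 and -1.43 for HEY1, -1.18 for ABCG2, -1.11 for FST, -0.72 for ID3, -0.725 for VEGFC, -1.36 for MMP10, -1.14 for CHAC1, -1.09 for SLC5A3, -1.76 for PRR16 and -1.50 for B4GALT6. It was above 0, at 0.53 for FGFR2 and 4.28 for COL15A1. EGR4, MMP10 and COL15A1 had 0 h means below the reference level, so the sizes of their differences are not firm. ABCG2 and the dimmer HEY1 probe set had 0 h arrays below that level (lowest 45.0 and 18.96), so their sizes are less firm too.

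The change differed between NFYB siRNA and control siRNA cells for 10 named genes. CDC25C, FAM111A, WDR6, MCF2L and CDK2AP2 were picked for this very difference, CDC25C also as a gene the study names. The 10 thus do not show how common such differences are. Over all 22215 probe sets the share called was 0.203%. The log2 change in NFYB siRNA cells minus that in control cells was 0.84 for PRKCZ, 1.30 for CDC25C, 0.55 for RRM2, 0.42 for BMP2, 0.75 for FAM111A, 0.68 for WDR6, 3.74 for MCF2L and 0.70 for CDK2AP2, and it was below 0, at -0.71 for MYBL1 and -0.50 for BAG1. MCF2L lay below the reference level at 8 h in both and at 0 h in NFYB siRNA cells.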

How the results depend on the processing

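The number of probe sets called higher (4504) and lower (6586) was within 1.5 times of itself in every alternative that called at an adjusted p under 0.05 with no fold threshold. It was 4961 and 5772 with median centring, 4644 and 6249 with quantile normalization, 4041 and 6110 with the Dharmacon siRNA alone and 4118 and 5852 with the Sigma-Aldrich siRNA alone. A change of at least 2-fold as well left 2358 and 2075. Leaving out 1 array gave 4334 to 4467 higher and 6305 to 6502 lower, and leaving out 1 replicate number gave 3944 to 4018 and 5651 to 5677. The methods' t-test on linear signal gave 2749 higher and 3503 lower at an unadjusted p under 0.001, and 4143 and 6032 after Benjamini-Hochberg adjustment. With replicate number as a block (replicate block) 4497 were higher and 6561 lower, with siRNA and number together as the block 4699 and 6969, and no pairing of the numbers was borne out. The difference between control siRNAs fell from 181 probe sets to 53 to 73, and that between arms from 45 to 3 to 8, when 1 replicate number was left out, which also leaves fewer arrays.

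Medians of short lists changed sign: E2F and pocket proteins to 0.082, ER stress to 0.20 and epithelial markers to 0.17 with the Sigma-Aldrich siRNA alone, BMP and TGF-beta genes to -0.041 with the Dharmacon siRNA alone, replication fork genes to 0.057 with quantile normalization and 0.072 with median centring, and epithelial markers to 0.22 in the upper 60% by signal. SLC5A3 changed by 0.064 with the Dharmacon siRNA alone and lost its call with the methods' t-test. The cause was not tested. E2F1 and TOPBP1 lost their calls in 6 and 12 alternatives, and API5 gained one in 6. Dim signals limit the folds of genes below the reference level, and MAS5 scaling makes each change relative to the array.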
